A study of Mus musculus with 2 samples.

Results

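The regions described here are stretches of open chromatin that lie between genes, far from any protein-coding start site, in the gastrocnemius (calf muscle) of old mice. Peaks of the 2 samples were merged wherever they overlapped by 1 bp, and merged regions with a peak of both samples were kept as shared regions. Of 74516 shared regions, 14441 (19.4%) overlapped no protein-coding gene body and had their nearest protein-coding start site over 10 kb and up to 100 kb from the region centre. They are called far intergenic regions. The other shared regions were 5147 near intergenic ones (over 1 kb and up to 10 kb from a start site), 6033 in gene deserts (over 100 kb), 28195 genic ones (in a gene body) and 20700 promoters (centre within 1 kb of a start site).

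The assay was DNase-seq, in which the enzyme DNase I cuts DNA that nucleosomes leave exposed, so that sequenced cut ends pile up at open sites. Both samples were gastrocnemius tissue of male adult B6CASTF1/J mice, an F1 hybrid of C57BL/6J and CAST/EiJ, aged 18 to 20 months. They form 1 group of 2 biological replicates, with no treatment, control or younger age to set against it, so every value below is a description without a test. The labels give 1 donor for both and a biosample for each, so the spread between them (SD, n = 2) may be technical. Replicate 1 had 131398 peaks and 339656 footprints, and replicate 2 had 91567 peaks and 234091 footprints. Read depth is unknown. Gastrocnemius is a bulk tissue that holds fibres and other cells, so a region open in few cells and one weakly open in many cannot be told apart.

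Distal open chromatin of this kind includes enhancers, which bind transcription factors and raise the activity of genes that can lie far away along the chromosome, and insulators bound by CTCF, a zinc finger protein that halts the cohesin complex as it extrudes loops of DNA. In skeletal muscle, MyoD and its relatives bind the E-box CAGCTG, and MEF2 proteins bind an AT-rich element. AP-1, made of Fos and Jun proteins, binds TGANTCA at enhancers in many tissues. BMAL1 and CLOCK drive the daily cycle from the E-box CACGTG. The nearest start site is used below as an address only, since enhancers often act on a gene that is not the nearest.

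The following 5 windows are examples of such sites in these regions, picked by rule, and are not typical of them. Each is the 200 bp at the region centre, from the + strand of the mouse genome build mm10 (RefSeq GRCm38.p6), with the motif match in capitals. Each of the first 4 had, for its motif, the highest mean signal percentile among far intergenic windows whose match was fully covered by a footprint in both replicates. A footprint is a short stretch of protected DNA inside an open site. Full cover in both replicates held for 1104 of 1413 CTCF matches and 74 of 633 clock E-box matches. It held for only 32 of 1693 AP-1 and 2 of 407 MEF2 matches. The last is the strongest of the regions nearest to Myod1.
CTCF match, 61.6 kb upstream of Gm15319, chr8:20424731-20424930: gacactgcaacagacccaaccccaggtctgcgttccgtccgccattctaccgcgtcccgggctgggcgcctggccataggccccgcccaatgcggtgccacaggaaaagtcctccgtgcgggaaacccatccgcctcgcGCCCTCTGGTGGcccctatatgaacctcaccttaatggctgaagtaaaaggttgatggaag
AP-1 match, 11.9 kb upstream of Fmnl1, chr11:103159081-103159280: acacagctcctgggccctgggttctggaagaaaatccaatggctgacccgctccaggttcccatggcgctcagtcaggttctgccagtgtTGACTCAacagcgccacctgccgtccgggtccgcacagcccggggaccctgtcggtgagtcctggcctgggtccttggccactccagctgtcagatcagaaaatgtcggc
MEF2 match, 10.2 kb upstream of Vps26c, chr16:94536901-94537100: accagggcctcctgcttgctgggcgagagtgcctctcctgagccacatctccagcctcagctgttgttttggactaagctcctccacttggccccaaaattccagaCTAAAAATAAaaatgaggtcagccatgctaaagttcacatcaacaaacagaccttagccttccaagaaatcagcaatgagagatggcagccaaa
Clock E-box match, 18.5 kb downstream of Trim43a, chr9:88599501-88599700: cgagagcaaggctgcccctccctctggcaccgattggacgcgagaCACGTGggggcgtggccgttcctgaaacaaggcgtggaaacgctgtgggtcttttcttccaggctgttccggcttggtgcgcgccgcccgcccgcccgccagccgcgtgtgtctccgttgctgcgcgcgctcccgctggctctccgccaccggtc
Myogenic E-box match, 34.8 kb upstream of Myod1, chr7:46341591-46341790: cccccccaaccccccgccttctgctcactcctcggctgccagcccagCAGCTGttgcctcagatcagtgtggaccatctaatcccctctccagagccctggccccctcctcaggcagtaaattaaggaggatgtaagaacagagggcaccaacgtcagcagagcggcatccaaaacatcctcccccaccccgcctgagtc

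Far intergenic regions were narrow, moderately open sites. Their median width was 220 bp (200 bp at percentile 25 and 267 bp at percentile 75), and together they covered 3.57 Mb. Near intergenic, desert and genic regions had the same median width, and promoters had 260 bp. Far intergenic sequence makes up 22.1% of the genome, and it held 24.7 shared regions per Mb. Near intergenic sequence held 33.9 per Mb, deserts 7.06, gene bodies 28.4 and promoter windows 320.3. Signals are in the authors' unit, whose scale is not stated, and the median over all peaks was 0.599 in replicate 1 and 0.760 in replicate 2. A region's signal is therefore given as the percentile of its strongest peak among all peaks of that replicate.

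The median signal percentile of far intergenic regions was 67.2 in replicate 1 and 52.9 in replicate 2, a mean of 60.1 ± 10.1 (SD, n = 2). Near intergenic regions had 73.6 and 63.0, deserts 56.5 and 37.8, genic regions 67.2 and 52.3, and promoters 84.5 and 80.7. In both replicates the order was deserts at the bottom, then genic and far intergenic regions close together, then near intergenic regions and promoters. Peaks in the top 10% of the file were found in 9.40% and 4.43% of far intergenic regions and in 40.6% and 34.2% of promoters. Signal fell with distance within the class. Regions 10 to 25 kb from a start site (n = 5042) had medians of 70.6 and 58.3, and those 75 to 100 kb away (n = 1758) had 63.5 and 46.8. The site files, which give a false discovery rate along the genome, put a median of 100% of a region's bases under 0.001 in replicate 1 and 62.5% in replicate 2. No base was under 0.001 in 9.6% and 30.4% of far intergenic regions, and in 7.3% and 13.6% of promoters.

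**Figure D1:**
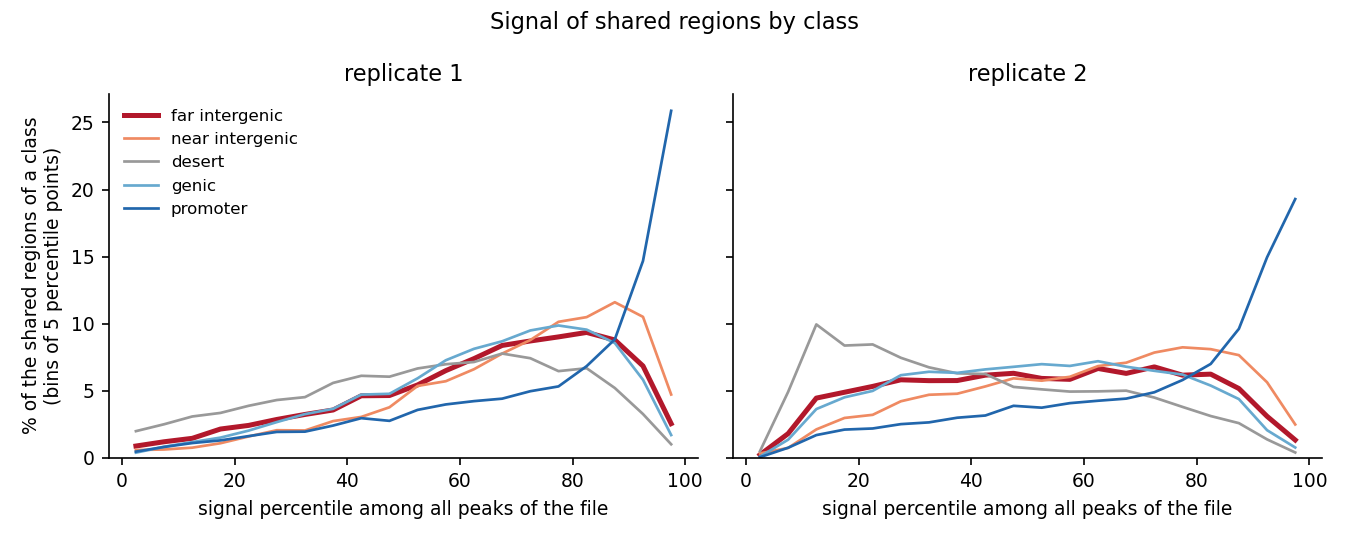
Share of the shared regions of each class (y axis, %) by signal percentile among all peaks of the file (x axis, bins of 5 points), for replicate 1 (left) and replicate 2 (right). Far intergenic regions spread over the middle and upper percentiles with medians of 67.2 and 52.9, while promoters pile up at the top with medians of 84.5 and 80.7.

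Strong far intergenic peaks were found in both replicates, and weak ones often were not. Of the 25547 far intergenic peaks of replicate 1, 57.6% overlapped a peak of replicate 2 (exact 95% interval 57.0 to 58.2). Of the 17769 of replicate 2, 82.7% overlapped a peak of replicate 1 (82.1 to 83.3). Among peaks in the highest 25% of their file by signal the shares were 98.7% and 99.8%, and in the lowest 25% they were 17.3% and 49.0%. Desert peaks had lower shares over all signals, 43.5% and 74.3%, and promoter peaks higher ones, 78.8% and 88.5%. Within the highest 25%, desert peaks had 98.9% and 100%, and promoter peaks 98.3% and 99.5%. Of the 14441 far intergenic regions, 88.5% overlapped a peak of the stricter list of replicate 1, 65.6% one of replicate 2, and 63.8% both.

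**Figure D2:**
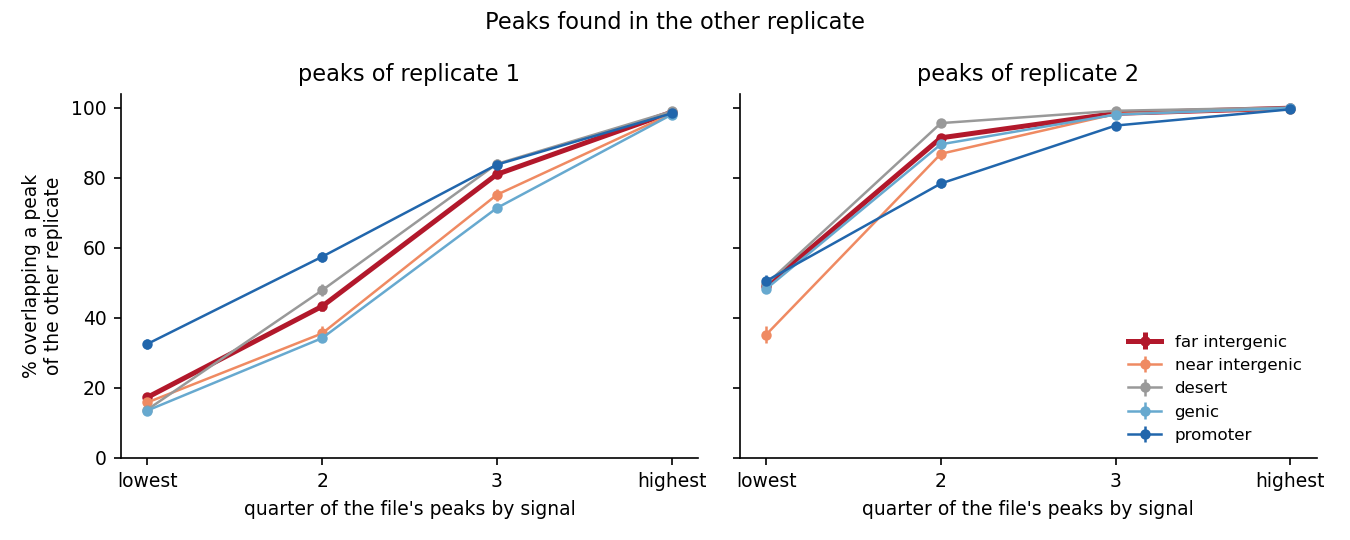
Share of peaks that overlap a peak of the other replicate by at least 1 bp (y axis, %; bars are exact 95% intervals) by signal, in 4 steps of 25% of the file's peaks (x axis), for peaks of replicate 1 (left) and replicate 2 (right). Far intergenic peaks reach 98.7% and 99.8% in the highest step and 17.3% and 49.0% in the lowest.

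The myogenic E-box was the most frequent of the 26 motifs searched in far intergenic regions. Consensus strings ran from 6 bp, as in this E-box, to 15 bp, so raw shares are not comparable between motifs. Motifs were searched on both strands of the central 200 bp, and set against 26254 windows of the same length 1 kb to either side that overlapped no peak. The E-box CAGCTG stood in 22.8% of far intergenic windows (3286 of 14441) and 9.22% of flank windows. Genic regions had 24.4%, deserts 24.4%, near intergenic regions 20.0% and promoters 13.1%. It varied little with signal, with 22.7% in the lowest 25% of far intergenic regions by signal and 23.1% in the highest 25%. The other E-boxes searched, which differ from it in the central bases, gave other values. CAGGTG, bound by ZEB and TCF proteins, stood in 14.6% of far intergenic and 14.7% of flank windows, and the clock E-box CACGTG in 4.18% and 3.04%.

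CTCF matches were more frequent among the stronger of these regions. The CTCF motif stood in 9.72% of far intergenic windows (1404), 0.0724% of flank windows and 1.34% of promoters. Near intergenic regions held it in 11%, deserts in 5.30% and genic regions in 7.37%. It stood in 5.15% of the lowest 25% of far intergenic regions by signal and in 15.4% of the highest 25%. It was 12.4% at 10 to 25 kb from a start site and 5.97% at 75 to 100 kb. Signal also fell over that distance, and the part of signal in this was not tested. Regions with a CTCF match had median percentiles of 76.7 and 67.1, against 65.9 and 51.3 in regions without one.

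AP-1 matches were less frequent among the stronger regions and more frequent with distance, by smaller steps. TGANTCA stood in 10.9% of far intergenic windows (1575), 5.66% of flank windows and 3.54% of promoters. It was in 11.9% of the lowest 25% by signal and 9.70% of the highest 25%, and in 9.80% at 10 to 25 kb and 12.3% at 75 to 100 kb. The TEAD motif CATTCC, bound by the partners of YAP, stood in 12.9% of far intergenic windows and 10.8% of flanks. The glucocorticoid receptor element, through which stress hormones act on muscle, was rare, with 44 far intergenic windows (0.305%) and 0.0419% of flanks. NFI, a family of paired half-site binders, had 136 windows (0.942%) against 0.0533% of flanks.

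Motifs of CpG-rich promoters were less frequent here than at promoters and more frequent than in flanks. GGGCGG, the box of SP and KLF proteins, stood in 11.1% of far intergenic windows, 52.3% of promoters and 2.81% of flanks. CCGGAAG, bound by ETS proteins, stood in 2.17%, 10.7% and 0.747%. GCCAAT, bound by NFY, stood in 8.82%, 13.4% and 5.80%.

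Of the other motifs, some were more frequent and some less frequent than in flanks. The ROR element, bound by clock receptors, stood in 0.686% of far intergenic and 0.305% of flank windows. The motif AAAGGTCA, bound by the NR4A receptors that exercise induces, stood in 1.38% and 0.971%, and the SRF element of actin genes in 1.198% and 0.941%. STAT (TTCCNGGAA) stood in 0.976% and 0.560%, and HIF, of the response to low oxygen, in 3.74% and 2.51%. The motif AGATAAG of GATA factors stood in 1.61% and 2.80%, SOX (ACAATGG) in 2.04% and 2.94%, and ERR (TCAAGGTCA), bound by receptors of oxidative metabolism, in 0.339% and 0.708%. RUNX (TGTGGTT) stood in 4.28% and 5.16%, PITX (TAATCC) in 4.78% and 8.51%, and FOX (TGTTTAC) in 2.79% and 2.58%. The order of RUNX and of PITX turned round in unmasked windows of 45 to 55% GC, with RUNX at 5.21% and 4.62% and PITX at 5.13% and 4.32%. That of FOX turned round in unmasked windows, with 2.83% and 3.09%.

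The MEF2 comparison depended on which windows were set side by side. MEF2 matches stood in 2.69% of far intergenic windows (389), which was below the 3.40% of flanks and above the 0.937% of promoters. Flank windows were more AT-rich (median GC 46%, against 52% in far intergenic windows) and held more soft-masked repeat sequence (29.2% against 8.95%). In windows with no soft-masked base (7515 far intergenic and 6508 flank windows, an alternative chosen after seeing the data) MEF2 stood in 2.57% and 1.29%. With GC also held to 45 to 55% it stood in 2.86% and 0.792%. In those windows of like GC the myogenic E-box stood in 23.1% and 13.1%, AP-1 in 12.5% and 6.21%, CTCF in 8.93% and 0.0766%, and the E-box CAGGTG in 15.3% and 18.9%. SP and KLF boxes stood there in 6.01% and 2.78%, ETS in 1.81% and 1.38%, and NFY in 9.59% and 6.72%. For SP and KLF and for ETS the gap was smaller than over all windows.

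**Figure D3:**
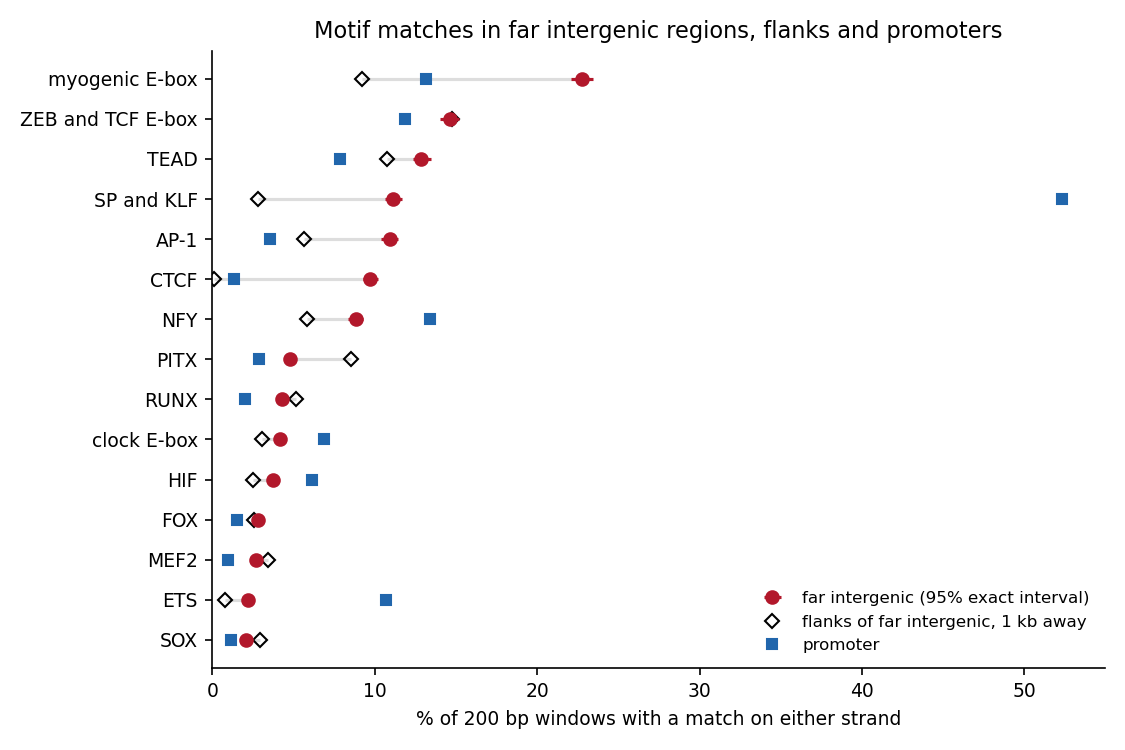
Share of 200 bp windows with a motif match on either strand (x axis, %) for far intergenic regions (red circles with exact 95% intervals), their flanks 1 kb away (open diamonds) and promoters (blue squares), for motifs found in at least 2% of far intergenic windows. The myogenic E-box lies at 22.8% in far intergenic windows and 9.22% in flanks, and CTCF at 9.72% and 0.0724%.

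Footprints covered most CTCF matches from end to end and few AP-1 or MEF2 matches. A mean of 3.05 footprints overlapped a far intergenic region in replicate 1 and 2.51 in replicate 2 (2.78 ± 0.380, SD, n = 2), and 95.4% and 92.0% of regions had at least 1. Near intergenic regions had means of 3.15 and 2.64. A footprint in a far intergenic region had a median width of 10 bp. For each motif, the share of matches fully inside a footprint was set beside the share of all placements of the same length in the same windows.

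Of 1413 CTCF matches, 90.02% were covered in replicate 1 and 80.1% in replicate 2 (85.1% ± 7.01, SD, n = 2), where 6.65% and 5.10% of all placements were. The covering footprints had median widths of 29 and 30 bp. NFI matches (137) were covered at 67.2% and 51.8%, with 5.02% and 3.88% of placements. NRF1, an activator of genes for mitochondria, had only 22 matches, covered at 77.3% and 59.1%. C/EBP, whose family includes Cebpb, had 29 matches covered at 62.1% and 24.1%, so its replicates lay far apart.

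The myogenic E-box was covered at 16.8% and 14.0% of 3792 matches, with placements at 12.6% and 9.97%. The clock E-box was covered at 24.8% and 17.7% of 633. The E-box CAGGTG was covered at 32.0% and 28.3% of 2312 matches, but 249 of those overlapped a CTCF match, and the remaining 2063 were covered at 24.6% and 21.0%. The clock E-box shares letters with the HIF motif ACGTGC, and 237 of its matches overlapped one. SP and KLF boxes were covered at 33.9% and 29.9%.

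AP-1 matches were covered less often than placements in both replicates, at 7.97% and 4.84% of 1693 matches beside 11.3% and 8.87%. MEF2 matches were covered at 5.41% and 0.737% of 407, beside 8.12% and 6.24%. The glucocorticoid receptor element was covered at 2 of 44 matches in replicate 1 and 1 in replicate 2. The lower cover in both replicates held for whole AP-1 matches but not by a looser rule. Counting any footprint that shares at least 1 bp, AP-1 was touched at 31.1% and 21.9% of matches, beside 27.0% and 22.0% of placements, and MEF2 at 36.4% and 20.2%, beside 30.7% and 25.1%. The glucocorticoid receptor element was touched at 45.5% and 31.8%, beside 36.7% and 30.2%, and the myogenic E-box at 30.4% and 26.5%, beside 25.7% and 20.9%. CTCF was touched at 97.7% and 93.5%, beside 33.1% and 27.2%. GATA and FOX stood below their placements under both rules. So did TEAD, PITX, RUNX, NR4A and ROR. In replicate 1 their gaps in percentage points were smaller by the 1 bp rule. In replicate 2 only that of TEAD was smaller, and the others were larger. TEAD was touched at 25.2% and 19.7%, beside 25.7% and 20.9%. Whole GATA matches were covered at 1.70% and 2.55% and FOX at 1.72% and 1.23%, beside 11.3% and 8.87%. By the 1 bp rule GATA was touched at 13.2% and 10.2% and FOX at 10.3% and 8.09%, beside 27.0% and 22.0%.

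**Figure D4:**
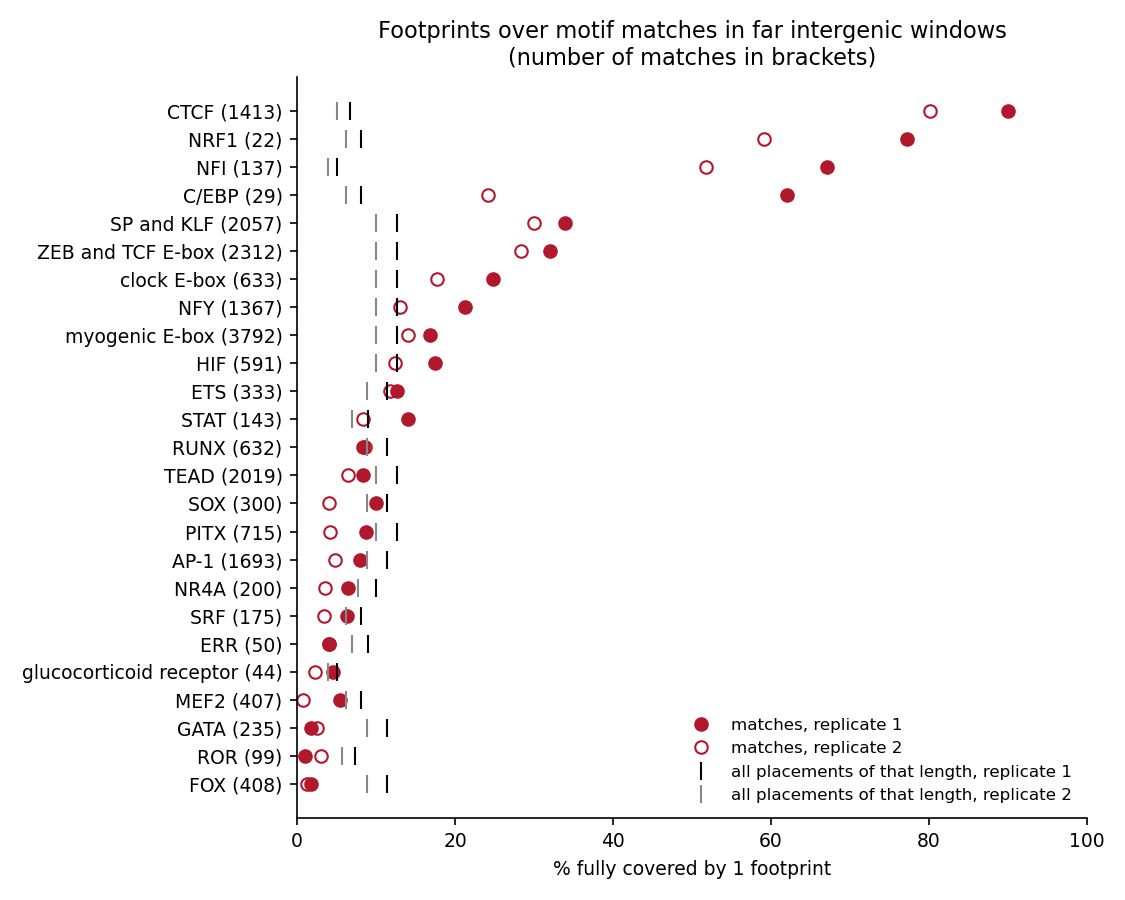
Share of motif matches in far intergenic windows that are fully covered by 1 footprint (x axis, %), in replicate 1 (filled circles) and replicate 2 (open circles), beside the share of all placements of the same length (vertical ticks). CTCF lies at 90.02% and 80.1%, the myogenic E-box at 16.8% and 14.0%, and AP-1 at 7.97% and 4.84%.

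The very strongest far intergenic regions were often CpG-rich. A CpG-rich window (GC over 50% and observed over expected CpG over 0.6) was found in 6.61% of far intergenic regions and 66.3% of promoters. Among the 100 far intergenic regions of highest mean percentile 57 were CpG-rich and 28 lay within 1 kb of an annotated lncRNA start. Among the top 1000, 258 were CpG-rich and 125 lay by a lncRNA start. The 954 CpG-rich regions had median percentiles of 79.7 and 74.7, and regions that were not CpG-rich had 66.5 and 51.6. The 759 regions within 1 kb of a lncRNA start had 74.3 and 64.0. The 178 with both features had 87.9 and 83.4, where promoters had 84.5 and 80.7. The rule looked at protein-coding start sites alone, so start sites of noncoding genes remained in the class.

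The region of highest mean percentile lay 21.6 kb upstream of Igf2bp3, which encodes an mRNA-binding protein of the embryo (chr6:49236421-49236620), with signals of 28.3 and 33.6 in the authors' unit. It held 50% GC and was not CpG-rich. The next lay 61.6 kb upstream of Gm15319 (chr8:20424721-20424940, signals 14.9 and 20.8), and is the CTCF window printed above. Tfap4, a helix-loop-helix factor, had one 10.99 kb downstream with 15.5 and 15.9. Cct8l1, Gm42791, Zfp395, A830005F24Rik, Wnt7b and Tspan9 followed, with signals between 10.2 and 12.8 in replicate 1 and between 11.4 and 13.4 in replicate 2. Next in order, a region 35.5 kb upstream of Pak3 on the X chromosome (chrX:143482981-143483140) had the highest signal of replicate 1, 44.0, and 10.4 in replicate 2. Its window was 34% GC and 34% soft-masked. No filter for duplicated or repeat sequence was applied here to the deposited peaks.

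Far intergenic regions often stood in runs. The median gap to the next one was 17.6 kb, and 40.8% of gaps were 10 kb or less. Joining regions no more than 10 kb apart gave 8564 runs, of which 5472 were single regions. The 348 runs of at least 5 held 2199 regions (15.2%). The longest, 32 regions over 63.1 kb on chromosome 19 (chr19:5786501-5849609), lay by Frmd8 and spanned the lncRNA genes Malat1 and Neat1, which encode nuclear RNAs, Neat1 as the scaffold of paraspeckles. Its median percentiles were 79.8 and 74.6.

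Runs of 13 lay by Spag9 and Tob1 on chromosome 11 (median percentiles 90.2 and 80.1) and by Nanos3 and Zswim4 on chromosome 8 (88.0 and 85.9). Another run of 13, by Vmn1r2 on chromosome 4 (chr4:3067321-3083620), was of another kind, with medians of 1.14 and 5.48 and 55.04% soft-masked sequence, whose part in the low signal was not tested. The genes with most far intergenic regions were Frmd8 and Irf2bp2 with 21 each, Tnp1 with 20, and Cops8, Gm15319 and Irf2bpl with 19 each. Bod1, Gm26897 and Wnt7b had 18 each, and 4930467E23Rik had 17. The regions of Gm15319 and 4930467E23Rik, both on chromosome 8, held means of 25.4% and 26.2% soft-masked sequence, against 8.95% over the class.

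The region with most footprints over both replicates lay 27.5 kb downstream of Irf2bp2, a transcriptional co-repressor (chr8:126565901-126567020, 1120 bp), with 16 in each replicate. One 29.5 kb downstream of Frmd8 (680 bp) held 17 and 13. One 37.8 kb downstream of Mtx3 held 22 in replicate 1 and 4 in replicate 2. The 5 widest regions ran from 1280 to 1382 bp. One of them, 14.9 kb downstream of Mrpl23, had the lncRNA Nctc1 as its nearest noncoding start, 9951 bp away (chr7:142547970-142549319, signals 1.01 and 1.16).

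At the 10 kb limit, the regions just inside lay 10.004 kb from Cd300e (signals 0.609 and 0.934) and 10.008 kb from Tbc1d22a (0.772 and 0.922). Those just outside lay 9.998 kb from Fam69c (0.838 and 0.766) and 9.999 kb from Gpr151 (1.88 and 1.70). At the 100 kb limit, regions at 99.985 kb from Atp6v1b2 (1.31 and 1.16) and 99.948 kb from Ankrd55 (0.310 and 0.375) were inside. Regions at 100.017 kb from Ralgapa2 (1.25 and 1.10) and 100.027 kb from Cd180 (2.03 and 1.96) were outside.

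Per length of far intergenic sequence, regions were dense around a few muscle genes and around some other genes. The share of a list's genes with a region gave another order than density did, and both are given. Of 21829 protein-coding genes 5621 (25.8%) were nearest to at least 1 such region, and of the 13908 genes that have far intergenic sequence nearest to them 5617 (40.4%) were. Over all genes this came to 2.47 regions per 100 kb of far intergenic sequence. All lists but heart, neuron and liver lay above that value. Of the 10 genes with most regions, Frmd8 had 77.8 per 100 kb, Wnt7b 26.9 and Irf2bpl 22.1. The others of the 10 had between 10 and 15.1. The 22 gene lists are described by their counts and density. The list of shared sarcomere and excitation genes had the highest density, 17.8 regions per 100 kb, with 7 of 18 genes (7 of the 9 with such sequence). Des, which encodes desmin, had 6 regions 12.8 to 17.3 kb upstream (chr1:75342941-75347592) with median percentiles of 87.2 and 75.7. Lmod2, an actin filament nucleator, had 6, and Lmod3, its relative, and Myom2, an M-line protein, had 4 each. Much of this list lay close to the lower limit: over 20 kb from a start site it had 8 regions in place of 24.

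The fast fibre list had 11.1 regions per 100 kb and 4 of 16 genes, 25% where all genes had 25.8% (4 of the 6 with such sequence). Tpm1, alpha-tropomyosin, had 11 of the 24 regions and Myh2, the IIa fast myosin heavy chain, had 7. The regions of Myh2 lay 17.6 to 45.4 kb upstream (chr11:67125461-67153480), with signals of 0.670 to 2.62 in replicate 1 and 0.464 to 1.65 in replicate 2. Myl1, a fast light chain, had 4. The slow fibre list had 7.59 per 100 kb and 5 of 12 genes, with 11 regions and 6 of them over 20 kb from a start site. Its strongest region lay 15.4 kb downstream of Myl3, the slow ventricular light chain, with signals of 4.82 and 5.52. The window of that region was CpG-rich.

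Regulators of muscle identity had 5.96 regions per 100 kb and 8 of 13 genes, with 43 regions, or 67 in the peaks of replicate 1 alone. Myod1, which starts muscle differentiation, had 6, all 23.0 to 38.8 kb upstream (chr7:46337521-46353620). The strongest of these, printed above, had signals of 2.58 and 1.71, and the one nearest to the gene (chr7:46353261-46353620) had 2.18 and 1.504. Myog, its downstream partner, had 2, at 13.9 and 15.2 kb upstream, with signals of 1.40 and 1.04 and of 2.10 and 1.297. Myf5, Myf6 and Pax3 had none. Pax7, the regulator of muscle stem cells, had 2, at 25.3 and 43.9 kb upstream, with signals of 1.82 and 1.67 and of 0.838 and 0.660.

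Among MEF2 genes, Mef2a had 11 regions 29.7 to 98.6 kb upstream, Mef2d had 6 and Mef2c had 2. The pair of strong regions of Mef2d, 35.2 and 35.5 kb downstream, had signals of 9.87 and 9.54 and of 9.53 and 9.62. Their centres lay 44 and 336 bp from the start of the lncRNA 1700113A16Rik, and both windows were CpG-rich. Tead1, which binds muscle promoters with YAP, had 8.

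**Figure D5:**
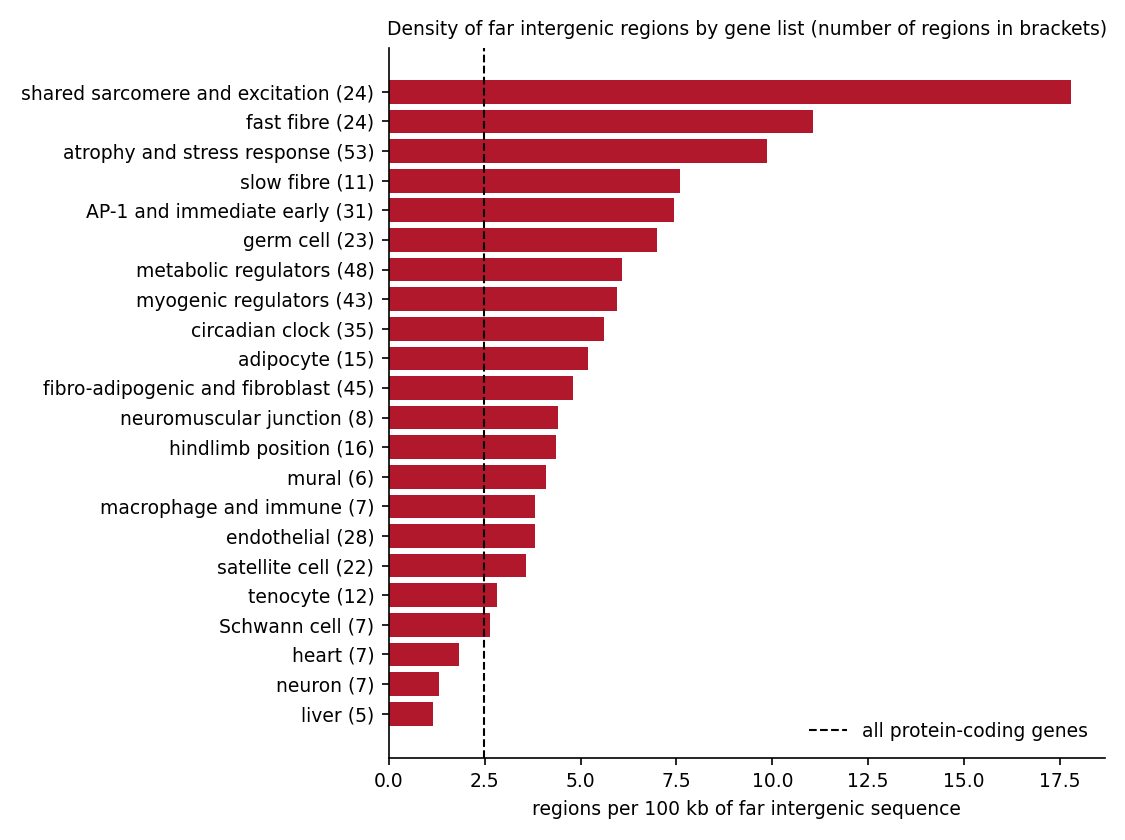
Far intergenic regions per 100 kb of far intergenic sequence nearest to the genes of each list (x axis, bars), with the number of regions in brackets; the dashed line is the value over all protein-coding genes, 2.47. The shared sarcomere and excitation list reaches 17.8 and the fast fibre list 11.1, while the heart, neuron and liver lists lie below the line.

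Genes that respond to stress, fasting and activity also had regions at a density above that of all genes. The atrophy and stress response list had 9.87 per 100 kb and 9 of 17 genes, with 53 regions, or 34 where the bodies of noncoding genes were left out too. Cebpb, a stress-induced transcription factor, had 13, Gadd45a, a mediator of denervation atrophy, had 10, and Foxo1, which switches on protein breakdown, had 9. The strongest region of Cebpb lay 76.4 kb downstream with signals of 6.72 and 6.55. The AP-1 and immediate early list had 7.43 per 100 kb and 8 of 12 genes, led by Fos with 14. A region 18.5 kb upstream of Fos (chr12:85455121-85455560) had signals of 9.07 and 9.03, and its window was CpG-rich. The metabolic regulators had 6.09 per 100 kb and 8 of 16 genes (48 regions, or 30 without noncoding gene bodies and 75 in replicate 1 alone), with Irs2, which relays the insulin signal, at 17 and Ppara, the receptor that drives fatty acid use, at 13. The circadian clock had 5.62 per 100 kb and 8 of 16 genes, with Bhlhe40, a clock repressor, at 10 and Arntl (BMAL1) at 8. Hlf, a clock output factor, had a region 27.2 kb upstream with signals of 9.49 and 10.6, also in a CpG-rich window.

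Lists of cells between the fibres ranged from about the density of all genes to 5.19 per 100 kb. The fibro-adipogenic and fibroblast list had 4.80 per 100 kb and 11 of 14 genes (45 regions, or 102 in replicate 1 alone and 72 in replicate 2 alone), with Col1a2 and Col1a1, the chains of type I collagen, at 12 and 7. The adipocyte list had 5.19 and 3 of 9 genes. Mural cells had 4.11 and 2 of 10 genes, a share of 20%, and 5 of their 6 regions were those of Notch3, which is also on the satellite cell list. With noncoding gene bodies left out they had 1 region. The macrophage and immune list had 3.80 and 5 of 13, endothelial genes 3.80 and 10 of 15, satellite cells 3.58 and 6 of 11, tenocytes 2.82 and 4 of 7, and Schwann cells 2.63 and 4 of 8. The satellite cell list had 22 regions, or 43 in replicate 1 alone, and Schwann cells 7, or 21. Of fibre nuclei under the synapse, the neuromuscular junction list had 4.42 and 4 of 13 genes. The hindlimb position list had 4.36 and 4 of 12 (16 regions, or 30 in replicate 1 alone and 10 without noncoding gene bodies), with Pitx1 and Tbx4, which specify the hindlimb in the embryo, at 5 each.

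Of the lists of tissues that the sample should not hold, 3 had the lowest densities, on 5 to 7 regions each. This did not hold for the share of genes with a region, which was 41.7% in the heart list and in the liver list. Heart genes had 1.83 per 100 kb (5 of 12 genes), neuron genes 1.32 (2 of 12) and liver genes 1.14 (5 of 12). Germ cell genes had 6.99 and 3 of 11, above the 5.96 of the myogenic regulators, and 20 of their 23 regions were those of Tnp1, a transition protein of sperm.

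Several densities rested on single genes. Each list was therefore also taken without its gene with most regions, an alternative chosen after seeing the data. The shared sarcomere and excitation list then had 14.5 regions per 100 kb, fast fibres 11.4 without Tpm1, atrophy and stress response 8.95 without Cebpb, and slow fibres 6.54. The AP-1 and immediate early list had 5.23 without Fos, the circadian clock 5.19, the myogenic regulators 5.06 and the metabolic regulators 4.99 without Irs2. Adipocyte genes had 3.98 without Lep, and the fibro-adipogenic and fibroblast list 3.95 without Col1a2. The value moved by over 1.5 times in 4 lists, to 2.26 for the neuromuscular junction, 1.69 for germ cells, 0.901 for mural cells and 0.463 for neurons. Heart genes then had 1.29 and liver genes 1.54, so both lay above mural cells, and Schwann cells had 1.775. The 3 lowest lists were thus not the same as with all genes.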

How the data were processed

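DNase-seq of 2 gastrocnemius samples (1 group) was used as deposited on mm10. Per the labels the samples are biological replicates 1 and 2. The signal of a peak (column 7 of the deposited peak lists) is in the authors' unit, and was compared only as a percentile within a file. The deposited sites carry p-values corrected to false discovery rates, each under 0.05, and the deposited footprints a constant 0.01, which marks a threshold only. The caller, the aligner and their settings are not given in the sources used here, and the peak lists hold no summit. The files do not separate the alleles of the hybrid.

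Regions were classed with GENCODE M21 (54355 protein-coding start sites, 21829 genes on the autosomes, X and Y). Motif matches were consensus matches on both strands of 200 bp windows; GC, CpG and soft-masking came from the RefSeq genome. A gene's far intergenic sequence was counted on a 1 kb grid. Intervals are exact (Clopper-Pearson) 95% intervals and cover counting error only. Regions are not replicates, and no test was run. Python 3.11.15, pandas 2.3.3, NumPy 2.4.6, SciPy 1.17.1 and matplotlib 3.10.9 were used, and the steps were tested on simulated data.

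Members, gene lists and motifs were chosen with earlier results of these data known. Named regions were the 10 of highest mean percentile, the 5 with most footprints, the 5 widest, those beside the limits, the strongest of each list and all of 11 muscle regulators, and named genes the 10 with most regions. Some genes and 1 motif that this rule or search names are not reported here. The lists are small, and Notch3 is on 2 of them. Other genes named were chosen after their values were seen. Alternatives were other peak lists, overlaps, distances, gene sets, windows and footprint rules, and each replicate alone.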

Additional observations from a re-analysis of the deposited data

How the results depend on the processing

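No paired analysis was possible because there is a single group. With the stricter peak list there were 9226 far intergenic regions (18.7% of shared regions), with a mean median percentile of 72.1, 3.25 footprints a region and CTCF in 12.5% of windows; CTCF matches were covered at 92.8% and myogenic E-boxes at 18.2%. With the better 50% of the peaks there were 7551 (17.4%), with 76.2, 3.44 footprints, CTCF in 13.3%, AP-1 in 10.2%, CTCF covered at 95.4%, E-boxes at 19.3%, and 3690 genes; far intergenic minus near intergenic CTCF turned positive, at 0.147 percentage points. With the bodies of all annotated genes left out the share was 16.1% and CTCF 10.4%, and with a lower limit of 20 kb 14.5% and 8.58%. Windows of 100 bp held AP-1 in 6.47% and the myogenic E-box in 13.6%, and windows of 400 bp in 17.0% and 32.5%. Footprints sharing at least 1 bp with the match covered 26.5% of AP-1, 95.6% of CTCF and 28.5% of myogenic E-box matches. MEF2 in far intergenic minus flank windows was 1.28 points without soft-masked bases and 2.07 with GC also held, in place of a negative difference; with GC held RUNX turned to 0.591 and PITX to 0.813, and without soft-masked bases FOX to -0.255. With the peaks of 1 replicate alone, there were 17603 to 25335 regions, median percentiles of 44.7 to 46.8, 2.10 to 2.25 footprints, CTCF in 6.96% to 8.10%, AP-1 in 10.1% to 11.2% and the E-box in 20.8% to 21.7% of windows, with E-box matches covered at 12.9% to 13.4%. Regions by gene list moved by over 1.5 times in 54 of 198 alternative counts, 15 of 22 with the stricter list, 17 with the better 50%, 12 in replicate 1 alone, 1 in replicate 2 alone, 5 without noncoding bodies and 4 over 20 kb; over all genes the count moved likewise with both stricter lists and in replicate 1 alone. The lists from 1 replicate add weak peaks found in 1 replicate. Of 109 alternative values of these 11 results, 70 moved by less than the interval or spread of the main value (1.5 times for a count). The window around a summit was not run, as the files give none. Read depth is unknown, which limits what an absent peak or footprint shows.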

Other observations

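The difference in signal percentile between the replicates varied by gene list. Percentiles were taken within lists of 131398 and 91567 peaks, and only regions with a peak in both were kept. The part of list length in the gaps was not tested. All shared regions had median percentiles of 70.4 and 58.3. Far intergenic regions from the peaks of 1 replicate alone had 46.8 in replicate 1 and 44.7 in replicate 2. Over all far intergenic regions the median percentile was 67.2 in replicate 1 and 52.9 in replicate 2. The 24 regions of the fast fibre list had 76.9 and 46.6, and the 24 near shared sarcomere and excitation genes had 84.9 and 60.9. The 12 of the tenocyte list had 74.4 and 48.0. Lists of other tissues had gaps of like size on few regions, with 50.1 and 27.9 for the 7 of the heart list and 48.5 and 26.8 for the 7 of the neuron list. The 28 regions of the endothelial list had 45.6 and 43.6, and the 11 of the slow fibre list 67.8 and 62.8. Regions with a MEF2 match had 70.0 and 49.5, and those with a CTCF match 76.7 and 67.1. With 1 library a replicate, the muscle piece, the cells it held and the library cannot be told apart.

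The X chromosome held 414 far intergenic regions with median percentiles of 45.2 and 24.5, below the medians of every autosome in both replicates (63.9 to 71.8 and 46.4 to 59.5). The 16 regions on Y had 21.8 and 35.3. Both samples were male, so the copy number of the sex chromosomes and their openness cannot be told apart here.

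Regions over 50% soft-masked numbered 402 (2.78%), with medians of 53.0 and 42.3. Regions downstream of their nearest start site held a CTCF match in 11.2% of windows, and upstream ones in 8.80%. The 87 regions with both a myogenic E-box and a MEF2 match had median percentiles of 72.9 and 49.5.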
